A study of Oryza sativa Indica Group with 6 samples.

Results

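GSTU6, GST1 and GST-II are genes of rice glutathione S-transferases, and they were read by 4 probe sets of the Affymetrix Rice Genome array among 57258 that are not controls of the manufacturer. They are 3 of the 17905 genes that a probe set there names alone. The members are all probe sets mapped to a single gene whose symbol or synonym is GSTU6, GST1 or GST-II. These genes were taken from 6 named glutathione S-transferase genes on the array with earlier results of these arrays known, in which limma called them higher in the line Ossl than in the line OsPE and called GSTU6 and GST1 also higher in the line Osoc than in OsPE. Their values and calls against OsPE are therefore a description of that choice and test nothing.

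The seedlings came from 3 T-DNA insertional mutant lines of rice, called OsPE, Osoc and Ossl, which the series title places in Basmati and the organism label in Oryza sativa Indica Group. They were grown under conditions described as optimal and taken 15 days after germination, and each line had 2 arrays that the series text calls biological replications. All 3 lines carry an insertion, an untransformed line was not used here. The sources used here give neither the insertion sites nor the meaning of the line names. They do not state whether each line goes back to 1 insertion event, or how many seedlings went into an array.

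Glutathione S-transferases join the tripeptide glutathione to reactive compounds, among them herbicides and products of oxidative damage, and the conjugates are then moved into the vacuole. Plants have large tau and phi classes of these enzymes, whose genes are often induced by stress, and smaller classes such as zeta with roles in metabolism. GSTU6 carries a tau class name, GST1 is also listed as GSTU1 of the tau class, and GST-II is also listed as GSTF2 of the phi class. The gene annotation pairs the probe sets with the loci LOC4349207 for GSTU6, LOC4334347 for GST1 and LOC4326887 for GST-II. GSTU6 has 2 probe sets and the others 1 each. The probe set of GST1 is of the type that can match more than 1 transcript, so its signal may hold a related sequence.

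Signals are scaled intensity units, and the mean signal of a line is followed by its SD (n = 2). On the brighter probe set of GSTU6 the signals were 443.5 and 397.9 in OsPE, 704.0 and 715.6 in Osoc, and 999.6 and 1104.6 in Ossl. Each line stood clear of the next, with OsPE lowest, Osoc in the middle and Ossl highest. The line means were 420.7 ± 32.2, 709.8 ± 8.2 and 1052.1 ± 74.2 in the same order. The ratio of the mean signals was 1.69 for Osoc against OsPE and 2.5 for Ossl against OsPE. Over the 4 pairs of single arrays the latter lay between 2.25 and 2.78.

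The other probe set of GSTU6 was dim. It read 28.4 and 17.7 in OsPE, 22.6 and 3.1 in Osoc, and 2.5 and 1.8 in Ossl. It exceeded the 40th percentile of its array, which lay between 22.5 and 26.0, on 1 array of OsPE and on no other, so it was not tested and gives only a bound on the transcript it targets. Its line means of 23.0 in OsPE, 12.8 in Osoc and 2.2 in Ossl ran in the reverse order to those of the brighter probe set. The arrays of OsPE and Ossl did not overlap, while the Osoc values were spread over most of its range.

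GST1 had the widest differences of the tested member probe sets against OsPE. Its signals were 158.5 and 148.6 in OsPE, 312.4 and 294.9 in Osoc, and 458.8 and 536.8 in Ossl, again with no overlap between lines. The line means were 153.6 ± 7.0, 303.6 ± 12.4 and 497.8 ± 55.2. The ratio of mean signals was 1.98 for Osoc against OsPE and 3.24 for Ossl against OsPE, with a range over pairs of arrays of 2.89 to 3.61 for the latter.

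GST-II was among the brightest probe sets of the array in every line, above 98.6% to 99.1% of the others. It read 9825.2 and 9388.7 in OsPE, 10453.4 and 10352.9 in Osoc, and 11883.2 and 13443.6 in Ossl. The same order of lines appeared without overlap, although over a narrow range. The line means were 9607.0 ± 308.7, 10403.2 ± 71.1 and 12663.4 ± 1103.4, and the arrays of Ossl differed from each other by more than Osoc did from OsPE. The ratio of mean signals was 1.08 for Osoc against OsPE and 1.32 for Ossl against OsPE.

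**Figure D1:**
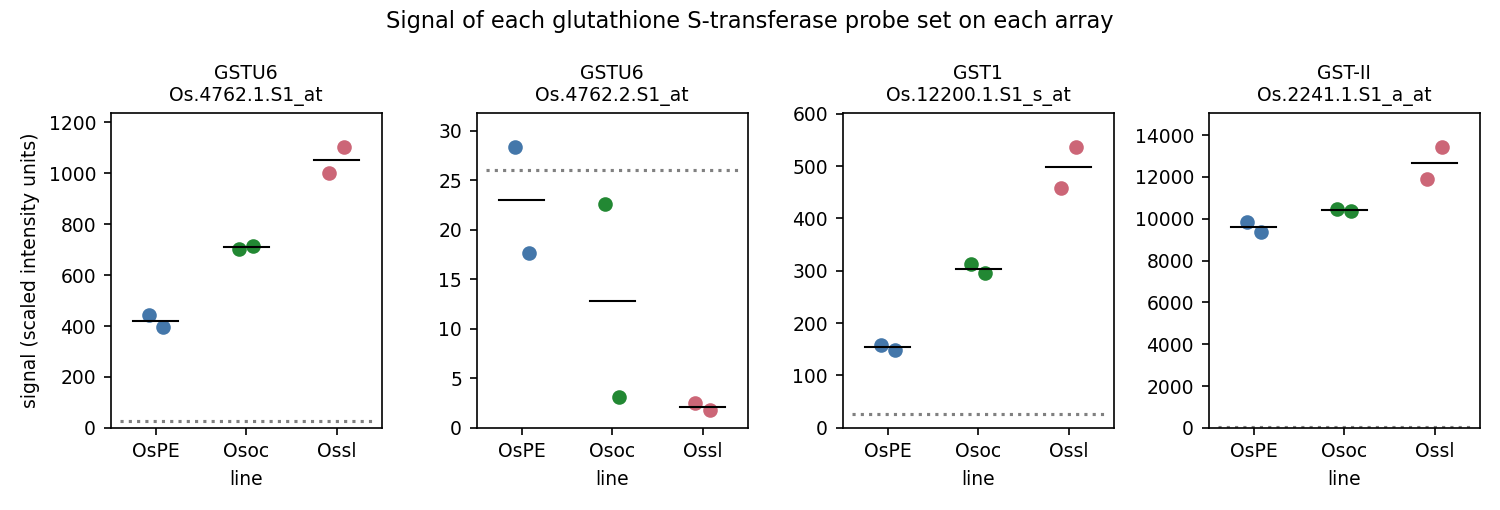
Signal (scaled intensity units, y axis from 0) of the 4 member probe sets on each array (points) by line, with the line mean (bar) and the highest 40th percentile of the arrays (dotted line, 26.0). In 3 panels the arrays of Ossl lie above those of Osoc and these above those of OsPE, and the dim second probe set of GSTU6 lies near or under the dotted line.

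The order OsPE, Osoc, Ossl without overlap held for 3 of the 3 tested member probe sets and for 2.53% of the 39629 tested probe sets. Since the members were chosen for differences from OsPE, nothing is read from that count. Differences below are on log2(signal + 16), with the standard error of limma's fit to all 6 arrays, and a call is an adjusted p below 0.05 over all tested probe sets. With 2 arrays a line, these p-values measure only the spread between the arrays. Limma takes that spread largely from other probe sets of like mean signal (8.98 prior against 3 residual degrees of freedom). In Osoc against OsPE, GSTU6 was higher by 0.73 ± 0.11, GST1 by 0.91 ± 0.17 and GST-II by 0.12 ± 0.06. GSTU6 and GST1 were called higher in Osoc, as chosen, that is 2 of the 3 tested members, where 3.61% of all tested probe sets were. Neither was called without a trend of the variance with the mean signal. In Ossl against OsPE, GSTU6 was higher by 1.29 ± 0.11, GST1 by 1.60 ± 0.17 and GST-II by 0.40 ± 0.06, and 3 of 3 were called higher, as chosen, where 4.11% of all tested probe sets were. GST-II was not called without the variance trend. The choice of the members fixed these counts against OsPE, and nothing is read from them or from their distance to the shares over all probe sets. On this log2 scale the difference of Osoc from OsPE was 56.9% of that of Ossl for GSTU6, 57.3% for GST1 and 29.1% for GST-II. The last is imprecise, as the 95% interval of GST-II in Osoc against OsPE was -0.02 to 0.25.

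The comparison of Ossl with Osoc was not used to choose the genes, but it shares the arrays of both lines with the comparisons that were, so its p-values are not independent of the choice. GSTU6 was 1.47-fold higher in Ossl (95% interval 1.24 to 1.74) on the offset scale, with limma's adjusted p = 0.00663. GST1 was 1.60-fold higher (1.25 to 2.06; limma's adjusted p = 0.0195) and GST-II 1.21-fold higher (1.10 to 1.34; limma's adjusted p = 0.0136). Arrays of the lines did not overlap for any of these probe sets. In this comparison 3 of 3 tested members were called higher in Ossl, where 5.93% of all tested probe sets were. As the members were chosen on the same arrays, nothing is read from that count or from its distance to that share. The calls of GSTU6, GST1 and GST-II ended without Osoc replicate 1 or Ossl replicate 2. Those of GST1 and GST-II also ended without Osoc replicate 2. Each of these fits leaves 1 line with 1 array. On the log2 scale the differences with all arrays were 0.56 ± 0.11 for GSTU6, 0.68 ± 0.17 for GST1 and 0.28 ± 0.06 for GST-II. Without Osoc replicate 1 they were 0.54 ± 0.14, 0.72 ± 0.21 and 0.29 ± 0.08 in the same order. Without Ossl replicate 2 they were 0.48 ± 0.14, 0.57 ± 0.20 and 0.19 ± 0.06. Without the variance trend, limma's adjusted p was 0.121 for GSTU6, 0.101 for GST1 and 0.291 for GST-II. The differences kept their sign without any of these 3 arrays, with values between 0.48 and 0.57 for GSTU6, 0.57 and 0.72 for GST1 and 0.19 and 0.29 for GST-II.

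Poly-A control RNAs added during sample preparation also differed on the Ossl arrays. Their mean log2 signal over 12 probe sets at the 5' end was 8.86 and 8.87 in OsPE, 9.07 and 9.10 in Osoc, and 7.72 and 7.75 in Ossl, and at the 3' end the difference of Ossl from the mean of the other lines was -0.52. The controls were thus lower and the members higher in Ossl. The ratio of 3' to 5' signal of the array's GAPDH control probe sets lay between 8.65 and 8.99 in OsPE, 7.62 and 8.28 in Osoc, and 8.97 and 9.26 in Ossl. That of actin lay between 7.33 and 7.85, 4.37 and 5.71, and 7.53 and 10.85 in the same order. The part of these in the differences of the members was not tested. As bulk seedlings were read, more RNA per cell and more cells of a kind that makes these transcripts cannot be told apart.

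All 4 leaf markers found on the array (RBCS, CAB2R, RCA and PORB), of 18 listed, were above the 40th percentile on every array, with summed signals of 128934 to 129991 in OsPE, 122576 to 128690 in Osoc and 126605 to 146566 in Ossl. Of 8 root genes found from 13 symbols, 3 were above it on every array and PHT1;6 and LSI2 on none, and the sums were 2096 to 2133, 2004 to 2058 and 1810 to 1813. Most of the root sum came from LSI1, at 1620.8 in OsPE, 1570.0 in Osoc and 1417.6 in Ossl, which limma did not call in any comparison. AMT1;2, at 318.0 in OsPE and 171.2 in Ossl, was the only root gene called (limma's adjusted p = 0.0164), and its call ended without OsPE replicate 1, OsPE replicate 2 or Ossl replicate 2 (0.121, 0.0877 and 0.0953) and without the variance trend (0.107). Single root genes did not move 1 way: HKT1;5 read 22.3 in OsPE and 79.0 in Ossl, and PIP2;5 read 55.2 and 70.9, with neither called (limma's adjusted p = 0.0983 and 0.89). The part of the root genes in the differences of the members was not tested. Of 6 genes of developing grain found from 17 symbols, GLUA2, GLB1 and WAXY were above it on every array and GLUA1 on none, with sums of 4502 to 4721, 3536 to 3632 and 4272 to 4374. GLB1 was called lower in Osoc, at 2094.6, than in OsPE, at 2756.2, and Ossl, at 2804.2 (limma's adjusted p = 0.0058 and 0.00252). Of the leaf markers, CAB2R was called higher in Ossl than in Osoc and PORB lower (limma's adjusted p = 0.0341 and 0.0345). The part of these leaf and grain genes in the differences of the members was not tested.

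The other named glutathione S-transferases on the array were GST-I, also listed as GSTF1 of the phi class, and gst2 (GSTZ3) and GSTZ5 of the zeta class, whose enzymes act in the breakdown of tyrosine. None of these 3 genes was called in any comparison at its brightest probe set, and that they were left out of the members follows from this for the comparisons with OsPE. An unadjusted limma p below 0.05 was found for GSTZ5 in Osoc against OsPE (0.0194) and for gst2 in Ossl against OsPE (0.00595) and Osoc (0.0283). GST-I read 59.2 and 44.7 in OsPE, 87.4 and 76.7 in Osoc, and 92.4 and 81.3 in Ossl. OsPE was again the lowest line with no overlap, while Osoc and Ossl overlapped. Its differences from OsPE were 0.54 ± 0.34 in Osoc and 0.60 ± 0.34 in Ossl on the log2 scale (limma's adjusted p = 0.437 and 0.352), so a difference of the size seen for GSTU6 lies within its 95% intervals of -0.20 to 1.27 and -0.13 to 1.34.

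The brighter probe set of gst2 is of a type that can match several transcripts, so its signal may hold a related sequence. It read 1363.6 and 1487.0 in OsPE, 1424.4 and 1575.5 in Osoc, and 1721.1 and 1759.3 in Ossl. Its arrays were highest in Ossl, and its difference of 0.29 ± 0.09 in Ossl against OsPE had the lowest adjusted p of the probe sets not called in that comparison among those of the named glutathione S-transferases (limma's adjusted p = 0.065). Its other probe set differed by -0.06 ± 0.11 (limma's adjusted p = 0.834), and its signals of 653.6 to 757.6 in OsPE, 629.5 to 630.8 in Osoc and 663.8 to 685.5 in Ossl did not show Ossl highest. GSTZ5 read 7198.5 and 6919.7 in OsPE, 7753.3 and 8029.7 in Osoc, and 7548.2 and 7048.6 in Ossl. It was highest in Osoc, and its differences of 0.16 ± 0.06 in Osoc against OsPE and 0.05 ± 0.06 in Ossl against OsPE did not pass (limma's adjusted p = 0.146 and 0.73).

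**Figure D2:**
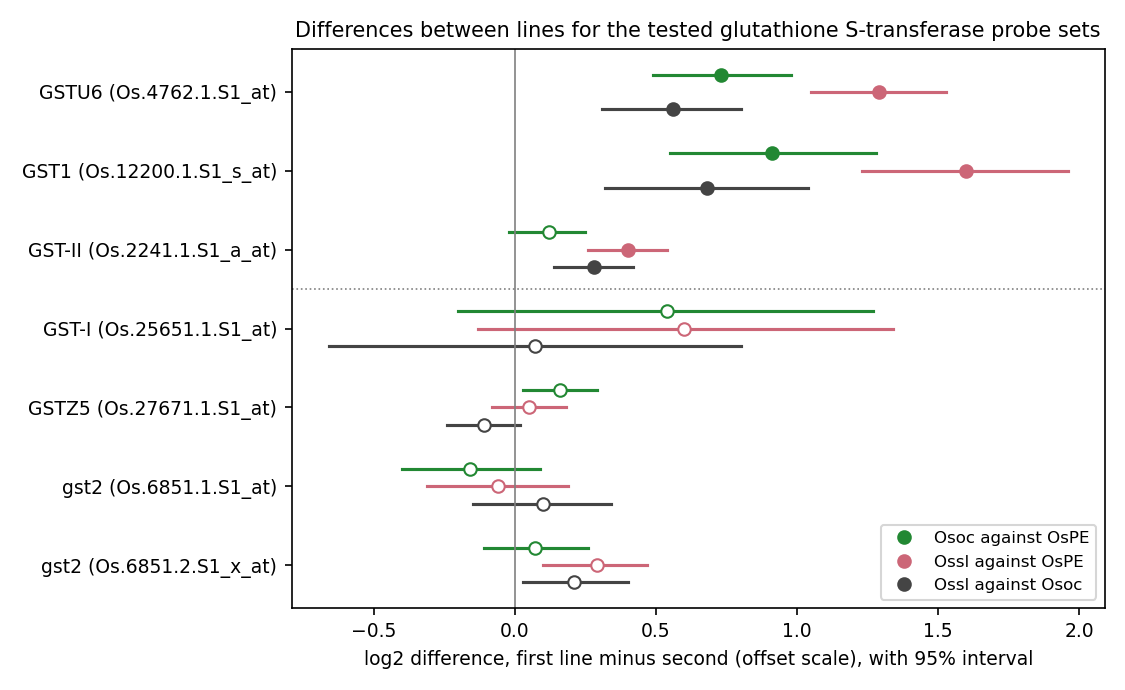
Differences on the log2(signal + 16) scale (x axis, first line minus second) with 95% intervals for the tested glutathione S-transferase probe sets, members above the dotted line, in 3 comparisons by colour (filled where limma's adjusted p was below 0.05). GST1 and GSTU6 lie farthest to the right at 1.60 and 1.29 for Ossl against OsPE, and the intervals of GST-I are the widest.

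Glutathione is made from amino acids in a first step by the enzyme of the gene gcs, and its oxidized form is reduced again by glutathione reductase. Neither gcs nor the reductase gene RGRC2 was called in any comparison by limma, and RGRC2 had an unadjusted p below 0.05 in Ossl against OsPE (0.00844). In Ossl against OsPE gcs differed by -0.05 ± 0.07 (3065.0 ± 122.0 against 3162.0 ± 48.7; limma's adjusted p = 0.772) and RGRC2 by 0.22 ± 0.07 (4806.8 ± 153.3 against 4129.6 ± 251.0; limma's adjusted p = 0.0817). GLYI-11, a glyoxalase that uses glutathione, and ABCC13, of the transporter family that moves glutathione conjugates in plants, were not called either, with differences of 0.07 ± 0.05 and 0.10 ± 0.09 in Ossl against OsPE (limma's adjusted p = 0.54 and 0.609). The monodehydroascorbate reductase genes MDAR2 and MDAR5, whose enzymes regenerate ascorbate, were not called against OsPE. MDAR2 was higher in Osoc than in OsPE by 0.18 ± 0.06, the direction of the members (limma's unadjusted p = 0.0136). MDAR5 differed by -0.20 ± 0.06 in Ossl against OsPE (limma's unadjusted p = 0.00774). Both genes were lower in Ossl than in Osoc, opposite to the members. MDAR2 fell from 9434.0 ± 254.6 to 7764.0 ± 65.7 (limma's adjusted p = 0.013) and MDAR5 from 3643.9 ± 106.1 to 3092.4 ± 13.9 (0.0336). Their calls ended without Osoc replicate 1 (0.108 and 0.184), without Osoc replicate 2 (0.0571 and 0.0893) and without Ossl replicate 2 (0.0527 and 0.0786), and that of MDAR5 without any other array too (0.0638 to 0.0836).

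Glutaredoxins use glutathione to reduce disulfides, and thioredoxins do so through their own reductases. The list held 38 genes, among them 3 thioredoxin reductases (NTRB, OsNTRA and OsNtrC) and 3 peroxiredoxins (PRXIIF, PRXIIC and R1C-Prx), which reduce peroxides. Of the 38 genes 3 were called higher and 1 lower in Osoc against OsPE, 3 higher and 2 lower in Ossl against OsPE, and 4 higher and 6 lower in Ossl against Osoc. Of the reductases and peroxiredoxins only OsNtrC was called, lower in Ossl than in Osoc (1666.8 ± 132.9 against 2200.8 ± 172.2; limma's adjusted p = 0.00939). It is named after its values were seen, and its call ended without Osoc replicate 1 or Ossl replicate 2 (limma's adjusted p = 0.104 and 0.0717). Of all tested genes at their brightest probe set, 5.78% were called higher and 6.14% lower in Osoc against OsPE. The shares were 7.01% and 4.70% in Ossl against OsPE, and 10.1% and 6.99% in Ossl against Osoc. The median differences of the 38 genes were 0.09, 0.02 and 0.03 on the log2 scale, next to -0.04, -0.01 and 0.02 for all genes.

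GRXC1 had another order of lines than the members. It was 1.85-fold higher in Osoc than in OsPE, at 13272.2 ± 103.6 against 7156.7 ± 230.9 (limma's adjusted p = 2.38e-06), and fell to 6826.6 ± 182.9 in Ossl (limma's adjusted p = 4e-07 against Osoc). GRXS12 was likewise highest in Osoc, at 7204.3 ± 125.4 against 5710.3 ± 64.3 in OsPE and 5581.6 ± 221.4 in Ossl (limma's adjusted p = 0.00415 and 0.00144), and the former call ended without OsPE replicate 2 (0.0624). GRXS9 was lower in Osoc (6311.3 ± 79.8) and Ossl (5828.6 ± 61.9) than in OsPE (8423.0 ± 161.9; limma's adjusted p = 0.000757 and 7.26e-05). GRXS5 fell by 0.33 in Ossl against OsPE and OsTrxm5 rose by 0.28 (limma's adjusted p = 0.003 and 0.00435), and these calls ended without OsPE replicate 2 (0.0605 and 0.058) and that of OsTrxm5 also without OsPE replicate 1 (0.0754). GRXC8 rose by 0.42 in Ossl against Osoc (limma's adjusted p = 0.000908).

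Ascorbate peroxidases, catalases and superoxide dismutases remove hydrogen peroxide and superoxide. Of 13 such genes 2 were called higher and 3 lower in Osoc against OsPE, 4 higher and 2 lower in Ossl against OsPE, and 3 higher and 1 lower in Ossl against Osoc. The shares of all genes called higher and lower were 5.78% and 6.14%, 7.01% and 4.70%, and 10.1% and 6.99% in these comparisons. The median differences of the 13 genes were 0.00, 0.07 and 0.02 on the log2 scale, next to -0.04, -0.01 and 0.02 for all genes. CatB, a catalase gene, was highest in Ossl at 10091.4 ± 51.8, against 8159.6 ± 199.4 in OsPE (limma's adjusted p = 0.00356) and 7576.4 ± 26.4 in Osoc (0.000343). The ascorbate peroxidase gene APX7 rose from 2935.9 ± 24.1 in OsPE to 3910.6 ± 105.8 in Osoc and 3723.7 ± 32.0 in Ossl (limma's adjusted p = 0.00176 and 0.00486). Among the other named calls, catA rose by 0.24 in Osoc against OsPE and SODCC.2 by 0.26 in Ossl against Osoc, while APX5 fell by 0.51 in Ossl against Osoc (limma's adjusted p = 0.0159, 0.0118 and 0.00679). APX8 fell by 0.23 in Osoc and by 0.26 in Ossl against OsPE (limma's adjusted p = 0.0285 and 0.0137).

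Several of these calls ended under another variance model or with 1 array left out. Without the variance trend, of the named glutaredoxin, thioredoxin, reductase, peroxidase, catalase and dismutase calls only that of GRXC1 in Ossl against Osoc remained (limma's adjusted p = 0.0427). With arrays centred on their medians, the calls of catA, APX8, SODCC.2, MDAR5, OsTrxm5 and of CatB against OsPE ended (limma's adjusted p from 0.0544 to 0.205). Against OsPE, those of CatB and APX8 in Ossl ended without OsPE replicate 2 (limma's adjusted p = 0.0722 and 0.201) and that of APX7 in Ossl without OsPE replicate 1 (0.0617). In Osoc against OsPE, the call of APX8 ended without any single array of either line (0.0849 to 0.305), and that of catA without OsPE replicate 1, OsPE replicate 2 or Osoc replicate 2 (0.142 to 0.155). In Ossl against Osoc, those of APX5 and SODCC.2 ended without Osoc replicate 1 (0.059 and 0.115).

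**Figure D3:**
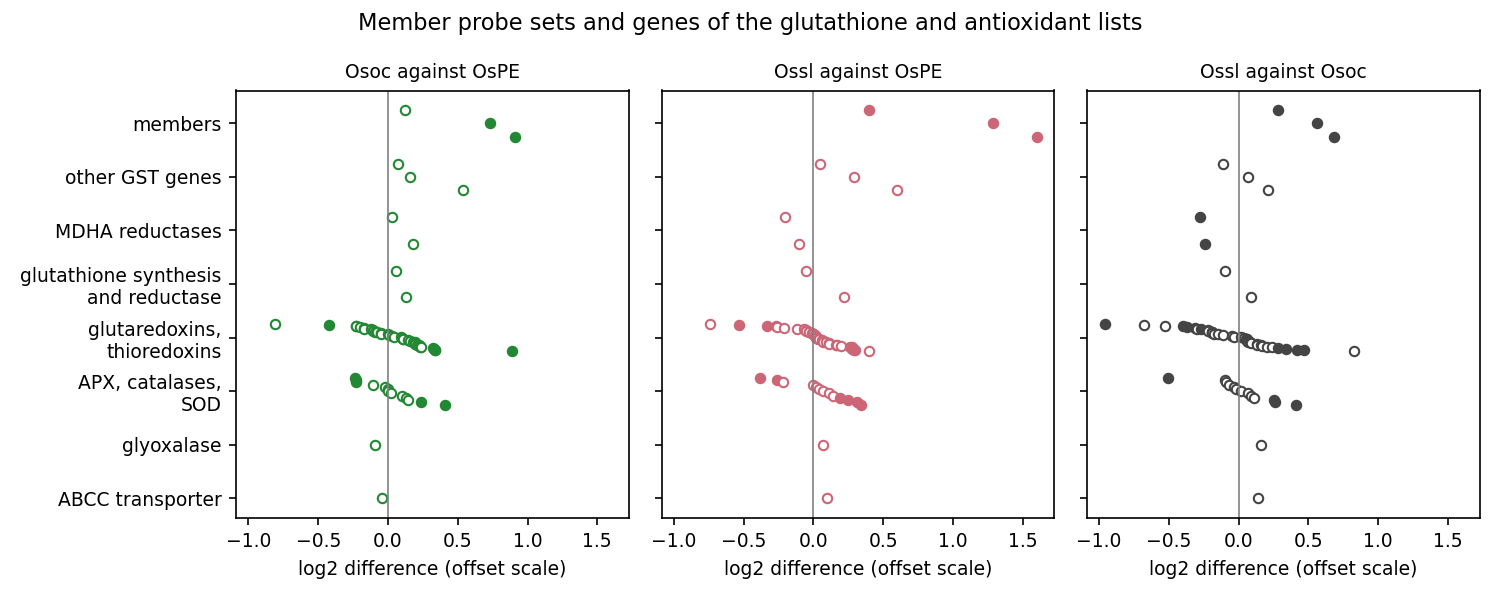
Differences on the log2(signal + 16) scale (x axis) of the 3 tested member probe sets and of the genes in 7 lists of the glutathione and antioxidant systems at their brightest probe set (the list of glutaredoxins and thioredoxins includes thioredoxin reductases and peroxiredoxins), in 3 comparisons (1 point a gene, filled where limma's adjusted p was below 0.05). In Ossl against OsPE the members lie at 0.40, 1.29 and 1.60, and the list points lie on both sides of 0.

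Among 2300 other named genes at their brightest probe set, those with the smallest root mean square distance to a member's centred log2 profile over the 6 arrays were taken as most alike. For GSTU6 these were OC-X at a distance of 0.077, BURP17 of the BURP domain family at 0.11 and MT4A, a metallothionein gene of the cysteine-rich metal-binding proteins, at 0.115. OC-X read 158.0 ± 26.0 in OsPE, 294.4 ± 25.1 in Osoc and 413.4 ± 20.3 in Ossl, BURP17 810.6 ± 7.0, 1331.6 ± 25.4 and 1733.7 ± 15.6, and MT4A 6521.7 ± 145.2, 11978.0 ± 659.9 and 17152.5 ± 1037.2. All 3 genes had their lowest line mean in OsPE and their highest in Ossl, with Osoc nearer the middle. Their choice by likeness to GSTU6 fixed that order, and nothing is read from it.

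For GST1 the nearest gene was GSTU6 at 0.132, before MT4A at 0.148 and OC-X at 0.158. The likeness of the tau class genes to each other is partly fixed by the choice of both for the same comparisons. GST-II lay farther from them, at 0.375 from GSTU6 and 0.50 from GST1. Its nearest genes were ADF-2, which encodes an actin-depolymerizing factor, at 0.04, cope1 at 0.044 and the cellulose synthase-like gene CSLE1 at 0.049. ADF-2 read 7029.8 ± 38.3 in OsPE, 7371.7 ± 127.0 in Osoc and 8773.6 ± 589.4 in Ossl. Its range was as narrow as that of GST-II, which follows from its choice by distance.

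**Figure D4:**
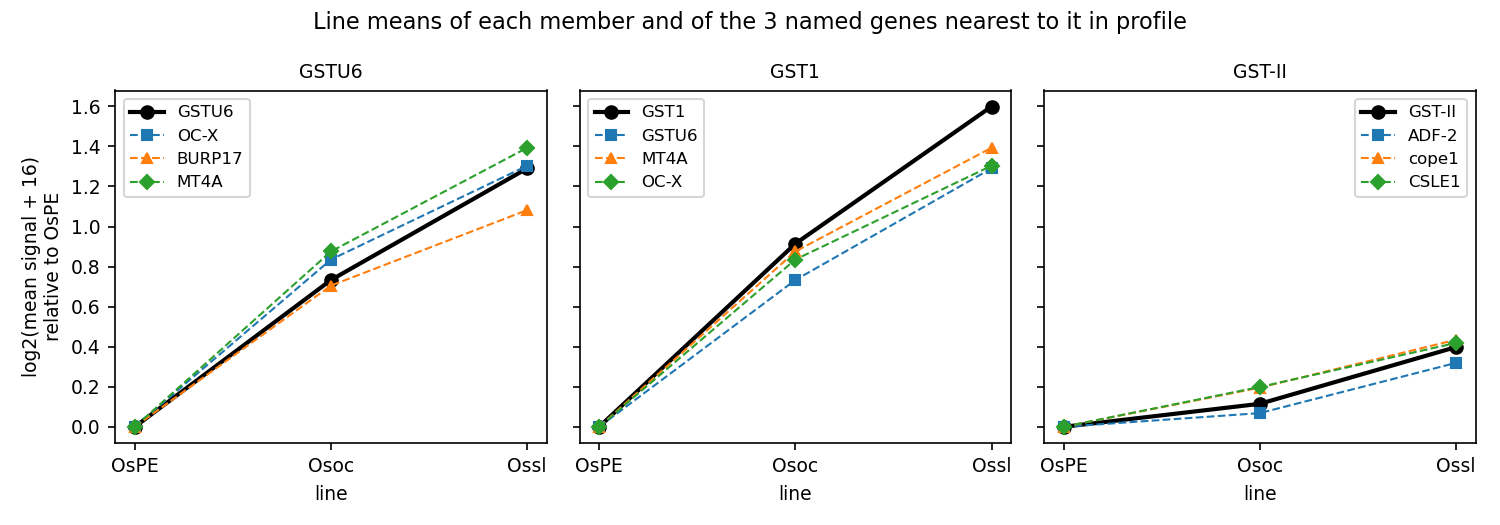
Line means as log2(mean signal + 16) relative to OsPE (y axis) for GSTU6, GST1 and GST-II (black) and the 3 named genes nearest to each (dashed); the connecting lines only guide the eye. GSTU6 and GST1 reach 1.29 and 1.60 in Ossl, and GST-II reaches 0.40.

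For each member the 3 closest genes on either side with a tested probe set were read, using the gene order of the reference annotation, and those called were named after their values were seen. Of these 18 genes limma called 0 in Osoc against OsPE, where 5.78% of all genes were called higher and 6.14% lower, and 3 had an unadjusted p below 0.05. It called 2 higher and 0 lower in Ossl against OsPE (7.01% and 4.70% of all genes), where 5 had an unadjusted p below 0.05. It called 4 higher and 1 lower in Ossl against Osoc (10.1% and 6.99% of all genes), where 8 did. Of the 6 around GSTU6, LOC4349210 was called higher in Ossl, at 2297.0 ± 140.9, than in OsPE, at 1570.8 ± 57.8, and than in Osoc, at 1736.4 ± 49.0 (limma's adjusted p = 0.00096 and 0.00605, the latter 0.06 without Osoc replicate 2).

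Of the 6 around GST1, 0 were called by limma against OsPE in either line, and 2 had an unadjusted p below 0.05 in each. PCF6, the gene next to it, differed by 0.84 ± 0.51 in Osoc and 1.14 ± 0.51 in Ossl at dim mean signals of 25.5 in OsPE, 54.8 in Osoc and 68.2 in Ossl (limma's adjusted p = 0.415 and 0.23). LOC4334351 was lower in Ossl than in Osoc, opposite to GST1, at 164.7 ± 10.6 against 296.4 ± 27.6 (limma's adjusted p = 0.0199). In Osoc against OsPE it was higher by 0.60 ± 0.19, the direction of GST1, and was not called (limma's adjusted p = 0.0897). In Ossl against OsPE it differed by -0.19 ± 0.19. Of the 6 around GST-II, LOC4326889 was higher in Ossl, at 1360.5, than in OsPE, at 1047.7, by 0.37 ± 0.09 on the log2 scale, a call that ended without any single array of these lines (limma's adjusted p = 0.0217, and 0.0689 to 0.182 without 1 array). It was also higher than in Osoc, at 970.6, by 0.48 ± 0.09 (limma's adjusted p = 0.00373), as were LOC4326886, at 78.6 ± 17.0 against 18.0 ± 3.7, and LOC4327034, at 4669.4 ± 198.3 against 3978.8 ± 131.5 (limma's adjusted p = 0.0412 and 0.0351). The calls of LOC4326886, LOC4327034 and LOC4334351 each ended without 3 or more of the single arrays (limma's adjusted p from 0.0633 to 0.207), and without the variance trend no neighbour named here was called (0.055 to 0.319).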

How the data were processed

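Total RNA of 15-day-old seedlings (8 µg per array, per the labels' protocols) was labelled with biotin and hybridized to Affymetrix Rice Genome arrays, 2 for each of 3 lines. The authors deposited linear signal intensities, and the submitters' processing notes name GCOS 1.2 without the signal algorithm. With the outer 2% of signals trimmed at either end the mean was 500.0 on every array. This scaling was kept, and the median was 37.3 to 42.8. Arrays give no counts, and their number limits the precision.

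The 123 control probe sets were left out. Probe sets above the 40th percentile on 2 or more of the arrays, 39629 in all, entered the test. Values were transformed to log2(signal + 16) and fitted over all 6 arrays with limma 3.58.1 under R 4.3.3, using eBayes with a variance trend and 3 residual and 8.98 prior degrees of freedom. Tests were two-sided, with Benjamini-Hochberg adjustment over all tested probe sets and a threshold of 0.05. The fit was also run on simulated data whose noise followed the variance trend of this fit, so that run cannot check the trend. Symbols came from the platform's probe annotation and RefSeq (assembly ASM3414082v1, Japonica Group), which give 1 symbol for 22436 probe sets, several for 95 and none for 34850. Family members without a symbol here are not included. Some other genes named above, among them gcs, catA and OsTrxm5, were also read by a probe set of a type that can match several transcripts.

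Members and lists were chosen with earlier results of these data known. From each of 8 lists (glutathione peroxidases matched no gene), up to 3 called genes with the lowest adjusted p per comparison are named, besides all named glutathione S-transferases and the 3 named genes nearest to each member's profile. A further 7 names that matched by letters alone were removed. Alternatives were the offset, the filter, the centring, the variance trend, the threshold, the lines in the fit, the second brightest probe set, the replicate number as a block and leaving out each array. Sequences and coordinates were not used here.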

Additional observations from a re-analysis of the deposited data

How the results depend on the processing

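The signs of the 9 member differences held in all 17 alternatives, in 135 of 153 cases with the same call. The filter, the variance trend, the block, the lines in the fit and the threshold leave a difference as it is. So does leaving out an array of a line outside the comparison. In these alternatives the sign could not change, and only the calls could. The direction and calls against OsPE were fixed by the choice of members. Without the variance trend 0 members were called in Osoc against OsPE, 2 in Ossl against OsPE and 0 in Ossl against Osoc, where 28, 382 and 402 probe sets passed instead of 2955, 3138 and 4441. At a threshold of 0.01 the probe sets were 1398, 1598 and 2323, and 1 member passed in Ossl against Osoc. With 1 array left out, the probe sets called ranged from 1201 to 3278 in Osoc against OsPE, 1495 to 2781 in Ossl against OsPE and 2342 to 3787 in Ossl against Osoc, and the members called in the last from 0 to 3. With a line reduced to 1 array, that array is assumed to vary like the others. Differences near 0 changed sign when 1 array was left out: GST-I in Ossl against Osoc ranged from -0.01 to 0.15, GSTZ5 in Ossl against OsPE from -0.0019 to 0.10, and the dimmer probe set of gst2 in the same comparison from -0.16 to 0.04. With the replicate number as a block 2958, 3132 and 4423 probe sets were called, and 2, 3 and 3 members as without it. The labels do not say whether a replicate number marks a shared batch. Replicate differences of different lines correlated at 0.00 to 0.01 across probe sets. In Ossl against Osoc the call of GST-II also ended with median centring (limma's adjusted p = 0.0968) and with no filter (0.0501). The brighter probe set of gst2 passed in Ossl against OsPE with the 60th percentile filter (limma's adjusted p = 0.0469). Other named genes gave 584 cases with the same call and 107 with the call lost, and counts in the lists moved by over 1.5 times in 45 cases and by less in 333. The causes were not tested.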
